A study of Mus musculus with 6 samples.

Results

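The MHC class II genes display peptides from the endosomal route to helper T cells, and Ciita is the transactivator that switches them on. The genes described here are Ciita, Cd74, H2-Aa, H2-Ab1, H2-Eb1, H2-DMa and H2-DMb1, which are 7 of the 46078 genes in the deposited count table. They were taken by gene name, and the names were chosen because these genes stood higher in aged than in young libraries of this same table. Their difference with age is therefore given as a description, with no test. Measured were 6 RNA libraries of small intestinal epithelial cells from untreated C57BL/6JRj mice. The series design puts 3 young mice at 2 to 3 months and 3 aged mice at 20 to 22 months, and the cells came from the proximal small intestine. The cells were sorted as positive for EpCam, an epithelial adhesion protein, and negative for CD45, the leukocyte surface protein encoded by Ptprc. The labels name no transgene, allele or agent in either group, so age is the only difference they give.

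A class II molecule is a pair of an alpha and a beta chain. In the mouse the classical pairs are I-A, from H2-Aa and H2-Ab1, and I-E, from H2-Ea and H2-Eb1. Mice of the C57BL/6 background lack a working H2-Ea promoter and make no I-E. The invariant chain Cd74 occupies the peptide groove and steers the pair to endosomes, and the H2-DM heterodimer of H2-DMa and H2-DMb1 then exchanges a Cd74 fragment for peptide. Ciita binds no DNA itself. It docks on the RFX complex, NF-Y and CREB, which sit on the X and Y boxes of class II promoters. Intestinal epithelium is a known site of class II expression outside the immune system, and interferon-gamma is the classical inducer of Ciita in such cells.

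The X and Y boxes are shown first because they are the feature that class II promoters share. Promoter windows from RefSeq on GRCm38.p6, each from 250 bases before to 50 bases after an annotated start, were found for 4 of the 7 genes (H2-Aa, H2-Eb1, H2-DMa and H2-DMb1). They were searched on both strands for an X core CNNNNAAC followed after 15 to 35 bases by a Y core TGATTGG. The letters and the distance were set after the windows of these genes had been read. The windows of H2-Aa, H2-Eb1 and H2-DMb1 held the pair in the direction of the gene, as did those of 4 other class II genes, H2-Oa, H2-Ob, H2-DMb2 and H2-Eb2. The 7 stretches follow 5′ to 3′ on the strand of the gene, with the X core and the Y core in capitals and 10 bases on each side.
H2-Aa: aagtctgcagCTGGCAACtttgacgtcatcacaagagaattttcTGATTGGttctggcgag
H2-Eb1: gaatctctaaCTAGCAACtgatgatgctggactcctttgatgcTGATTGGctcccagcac
H2-DMb1: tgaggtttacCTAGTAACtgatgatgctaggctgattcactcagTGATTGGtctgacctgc
H2-DMb2: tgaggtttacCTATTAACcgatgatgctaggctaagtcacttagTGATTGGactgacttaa
H2-Eb2: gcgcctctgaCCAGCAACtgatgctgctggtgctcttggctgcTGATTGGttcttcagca
H2-Oa: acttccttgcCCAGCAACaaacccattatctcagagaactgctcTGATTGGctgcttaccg
H2-Ob: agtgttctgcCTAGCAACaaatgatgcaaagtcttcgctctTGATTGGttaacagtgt

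Between the cores lay 26 bases in H2-Aa, 25 in H2-Eb1 and 26 in H2-DMb1. In the same order the X core began 84, 94 and 97 bases before the RefSeq start. The stretches lie at chr17:34287857-34287917 (minus strand) for H2-Aa, chr17:34305763-34305822 for H2-Eb1 and chr17:34153084-34153144 for H2-DMb1. In GENCODE M21 the H2-DMb1 gene begins at 34153072, so its stretch lies before the RefSeq start but within the GENCODE gene. Of 32851 promoter windows of the same length, 0.493% held the pair on either strand and 0.222% in the direction of the gene. The Y core alone was in 7.82% and the X core alone, a loose pattern, in 81.6%. In H2-Oa a second X core overlapped the one shown. The 2 windows of H2-DMa held no pair, which says only that these letters are not in those windows. GENCODE M21 annotates 8 transcript start sites for that gene.

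Total counts ran from 41479573 to 58989166 per library, and all 7 genes passed the filter on low counts with 14923 genes in all. The mitochondrial share of counts lay between 1.48 and 3.69% and overlapped between the ages. The first principal component (45.1% of the variance) put young replicates 1, 2 and 3 at -27.7, -11.7 and -30.8. It put aged replicates 1, 2 and 3 at 29.1, 31.3 and 9.8. Over all tested genes, young replicate 2 and aged replicate 3 thus lay nearest to the other age. On the second component (22.8% of the variance) young replicate 2 at -35.0 and aged replicate 3 at 22.1 stood apart from the other 4 libraries, which lay between -4.83 and 12.4. Levels are given as CPM, counts scaled to a common library size with TMM factors. Epcam had a mean of 1656 ± 18.3 CPM for the young and of 1510 ± 11.3 CPM for the aged (SD over 3 libraries), and the counts of Ptprc ran from 7 to 17. Replicate numbers follow the order of the records and pair no libraries.

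In each of the 7 genes the lowest aged library stood above the highest young library. Of all tested genes 6.3% had that arrangement and 7.49% the reverse. With a fitted fold of at least 4 as the mark, 7 of 7 members passed against 0.322% of tested genes, and 4 of 7 had an adjusted p below 0.05 against 0.623% called higher. The genes were chosen on this contrast, so nothing is read from these counts. The members' median log2 fold change was 4.43, beside 0.01 for all tested genes. Without young replicate 2 or aged replicate 3, which stood apart above, it was 4.86 or 4.87. In RNA from a pool of cells, more transcript per cell and a larger share of cells with the transcript cannot be told apart.

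**Figure D1:**
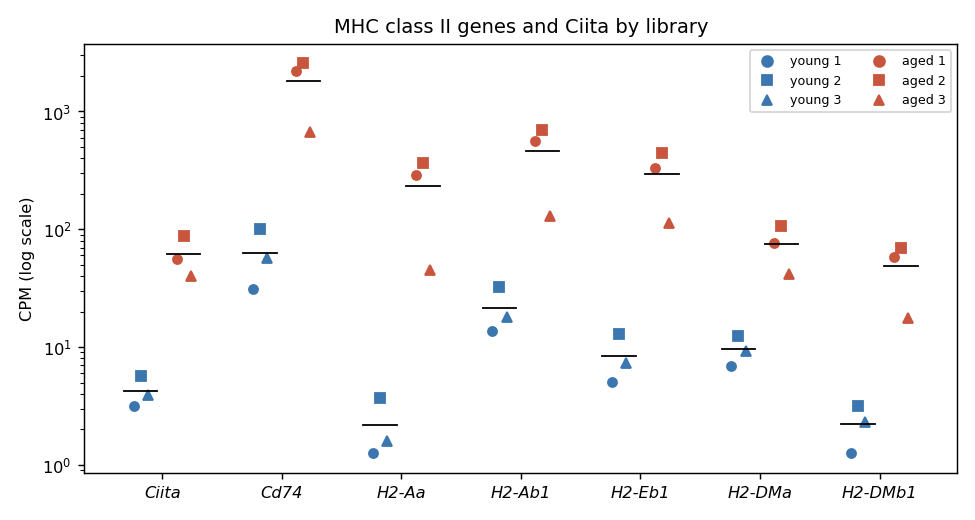
CPM on a log scale of the 7 genes in each library (young in blue, aged in red, marker shape by replicate number, black bar for the mean of 3). Every red marker lies above every blue marker of the same gene, and aged replicate 3 is the lowest aged library throughout.

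Ciita (ENSMUSG00000022504, GRCm38 chromosome 16, 10480059 to 10528418, plus strand), the transactivator, was measured at 3.19, 5.73 and 3.89 CPM in young replicates 1, 2 and 3 and at 56.3, 87.3 and 40.3 CPM in aged replicates 1, 2 and 3. The groups were 7.02-fold apart at their nearest libraries. The fitted log2 fold change was 3.83 ± 0.36 (SE). GENCODE M21 gives Ciita 8 transcripts with 8 start sites, and the gene count does not show from which of its alternative promoters the reads came. Its exons overlap those of Dexi on the opposite strand, which had 562 to 933 counts per library beside 140 to 3980 counts of Ciita.

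The chains of I-A come from H2-Aa (ENSMUSG00000036594, chromosome 17, 34282744 to 34287823) and H2-Ab1 (ENSMUSG00000073421, chromosome 17, 34257689 to 34269419). The alpha chain gene H2-Aa stood at 1.25, 3.69 and 1.58 CPM in young and at 288, 368 and 45.0 CPM in aged replicates 1, 2 and 3. Its counts spanned 55 counts in young replicate 1 and 16769 in aged replicate 2. Its fitted log2 fold change of 6.69 ± 1.04 was the largest of the 7 and had the largest standard error.

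The beta chain gene H2-Ab1 stood at 13.6, 32.3 and 18.1 CPM in young and at 565, 693 and 129 CPM in aged replicates 1, 2 and 3. Its nearest libraries, aged replicate 3 and young replicate 2, were 3.99-fold apart, where those of H2-Aa were 12.2-fold apart. The fitted log2 fold change was 4.43 ± 0.77. The partners thus moved by unequal amounts. Per kb of exon, H2-Ab1 exceeded H2-Aa by a ratio of 16.1, 13.0 and 16.9 in young and of 2.90, 2.79 and 4.23 in aged replicates 1, 2 and 3. These ratios did not overlap between the ages. Their absolute size depends on the exon lengths used, but the change between libraries does not.

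H2-Eb1 (ENSMUSG00000060586, chromosome 17, 34305867 to 34316674) encodes the beta chain of I-E. It stood at 5.05, 13.0 and 7.30 CPM in young and at 331, 440.3 and 113 CPM in aged replicates 1, 2 and 3, a log2 fold change of 5.11 ± 0.69. Its alpha chain partner, listed as the polymorphic pseudogene H2-Ea-ps, had 0 counts in all 6 libraries. A count of 0 allows up to 3 counts, or 0.0507 to 0.0720 CPM over the libraries, and such limits cover counting error only. The transcript of the beta chain was thus present in libraries in which that of its partner was not detected.

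Cd74 (ENSMUSG00000024610, chromosome 18, 60803848 to 60812652), the invariant chain, was the most abundant of the genes per length in every library. It stood at 31.0, 100.03 and 57.4 CPM in young and at 2186, 2555 and 664 CPM in aged replicates 1, 2 and 3, a log2 fold change of 4.84 ± 0.74. Among 45143 genes with an annotated length, ordered by CPM per kb of exon, Cd74 ranked 3131, 817 and 1665 for the young and 22, 14 and 79 for the aged. Divided by H2-Ab1 per kb, Cd74 gave ratios of 3.47, 4.74 and 4.86 for the young and 5.92, 5.64 and 7.88 for the aged, without overlap. A microRNA gene within Cd74, Mir5107, had 1 to 3 counts in young and 22 to 79 in aged libraries, and its exon overlaps exons of Cd74 on the same strand.

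The peptide editor has its alpha chain from H2-DMa (ENSMUSG00000037649, chromosome 17, 34119541 to 34139101) and its beta chain from H2-DMb1 (ENSMUSG00000079547, chromosome 17, 34153072 to 34160230). H2-DMa stood at 6.96, 12.5 and 9.29 CPM in young and at 76.8, 106 and 41.7 CPM in aged replicates 1, 2 and 3. Its log2 fold change of 2.96 ± 0.39 was the smallest of the 7. Exons of H2-DMa overlap exons of Brd2 on the opposite strand, which had 19588 to 29486 counts per library. The strand setting of the counting is not given in the sources used here, and the part of Brd2 reads in the H2-DMa count was not tested.

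H2-DMb1 stood at 1.25, 3.18 and 2.30 CPM in young and at 57.9, 69.3 and 17.8 CPM in aged replicates 1, 2 and 3, a log2 fold change of 4.40 ± 0.65. As with I-A, the partners moved unequally. H2-DMa divided by H2-DMb1, both per kb, gave 2.71, 1.91 and 1.97 for the young and 0.646, 0.743 and 1.14 for the aged, without overlap. Any Brd2 reads in the H2-DMa count would enter these ratios, and their part was not tested. H2-DMb1 has a near copy beside it, H2-DMb2. The longest open reading frames of both are 786 bases long and 95.9% identical, with a run of 221 bases without a difference, so reads from the pair cannot always be told apart.

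Scaled to the union of exons, the 7 genes kept the ends of their order but not its middle. In mean CPM per kb (SD over 3 libraries), the young order was Cd74 at 37.4 ± 20.7, H2-Ab1 at 8.31 ± 3.795, H2-Eb1 at 4.34 ± 2.09, H2-DMa at 2.78 ± 0.80, H2-DMb1 at 1.34 ± 0.574, H2-Aa at 0.572 ± 0.348 and Ciita at 0.448 ± 0.138. The aged order was Cd74 at 1073 ± 597, H2-Ab1 at 180 ± 115, H2-Eb1 at 152 ± 85.6, H2-Aa at 61.5 ± 44.3, H2-DMb1 at 28.8 ± 16.1, H2-DMa at 21.7 ± 9.29 and Ciita at 6.43 ± 2.51. By these means Cd74 was first and Ciita last at both ages, and H2-Aa passed from below both H2-DM genes to above them, except in aged replicate 3, where it was below H2-DMa. Some neighbours did not hold their order in every library. H2-Aa was below Ciita in young replicate 1, H2-Eb1 was above H2-Ab1 in aged replicate 3 by a ratio of 1.16, and H2-DMa was above H2-DMb1 in aged replicate 3 by a ratio of 1.14. The order also depends on the length used. With the longest transcript in place of the union of exons, H2-Aa was at 0.732, 1.20 and 0.759 times Ciita in the young, below it in 2 of 3 libraries, and H2-DMa was at 0.929, 1.07 and 1.64 times H2-DMb1 in the aged, above it in 2 of 3. By that length H2-Eb1 was below H2-Ab1 in aged replicate 3, at a ratio of 0.638. H2-Eb1 per kb of the union of exons stood at 0.518 ± 0.025 of H2-Ab1 among the young and 0.924 ± 0.208 among the aged, with 0.772 as the lowest aged and 0.534 as the highest young value.

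All told, the 7 genes held 0.00616, 0.0171 and 0.0100% of all counts in young and 0.352, 0.434 and 0.106% in aged replicates 1, 2 and 3. Their order among libraries of the same age was not used to choose them. In all 7 genes it was young replicate 2, then 3, then 1, and aged replicate 2, then 1, then 3. That arrangement was found in 4.51% of all tested genes. Libraries of one age thus ranked alike in every gene of the group.

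Within an age the spread of these genes was wider than that of most genes. Between the highest and lowest aged library the ratio was 2.17 for Ciita, 2.53 for H2-DMa, 3.85 for Cd74, 3.89 for H2-Eb1 and H2-DMb1, 5.37 for H2-Ab1 and 8.16 for H2-Aa (CPM with a prior count of 2). The median gene had 1.19. Between 94.7 and 99.9% of tested genes had a smaller range among the aged libraries, and between 88.3 and 98.7% had a smaller one among the young. Of the 7 genes Ciita had the smallest aged range. Among young libraries, H2-DMa and Ciita had the smallest ratios, both 1.78, and Cd74 had the largest, 3.22.

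**Figure D2:**
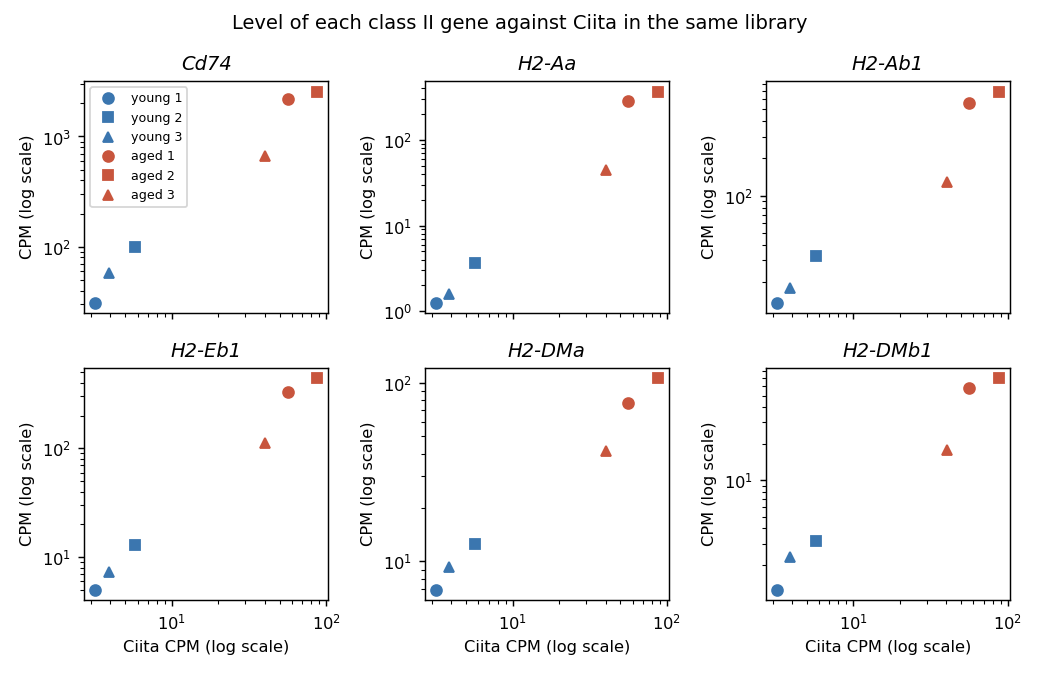
CPM of each class II gene against CPM of Ciita in the same library, both axes logarithmic, with young libraries in blue and aged in red. In every panel the markers run from young replicate 1 at the lower left to aged replicate 2 at the upper right in 1 order, and the gap between aged replicate 3 and the other aged libraries is widest for H2-Aa.

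Set against Ciita in the same library and per kb of exon, the class II genes did not keep a fixed ratio. H2-Aa stood at 0.986, 1.61 and 1.02 times Ciita in young and at 12.9, 10.6 and 2.81 times Ciita in aged replicates 1, 2 and 3. H2-DMa went the other way, from 6.04, 6.01 and 6.61 times Ciita for the young to 3.78, 3.35 and 2.87 for the aged. The limit from Brd2 reads in the H2-DMa count holds here too. For H2-Ab1 the groups overlapped, at 15.9, 20.9 and 17.2 for the young against 37.3, 29.5 and 11.9 for the aged. H2-DMb1 overlapped too, with 2.23 to 3.36 in young and 2.51 to 5.84 in aged libraries. Aged replicate 3, in which Ciita was lowest among the aged, had the lowest ratio to Ciita of the aged libraries in all 6 genes.

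The other 5 listed genes of the class II region were close to or at 0 in every library. H2-Oa and H2-Ob encode H2-O, which restrains H2-DM and is known from B cells and dendritic cells. H2-Ob had 0 counts in all 6 libraries and H2-Oa 1 count, in young replicate 1. H2-DMb2 had 5 counts in total and H2-Eb2 had 4, all of them in aged replicates 1 and 2. H2-Ea-ps had none, as above. None of the 5 passed the filter on low counts. The promoter windows of H2-Oa, H2-Ob, H2-DMb2 and H2-Eb2 printed above match the X and Y cores searched, as do those of H2-Aa, H2-Eb1 and H2-DMb1.

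Cells other than epithelium that carry class II were checked by lists of markers. B and plasma cell markers summed over 10 genes to 2.65 to 2.91 CPM for the young and 2.99 to 4.19 CPM for the aged, without overlap. Of these, Ms4a1, Pax5, Blk and Cr2 had at most 3 counts in each library. Most of each B cell sum came from Cd79b, which overlapped between the ages. Cd79b stood at 2.25, 1.49 and 2.30 CPM in young and 2.30, 2.54 and 2.23 CPM in aged libraries. The 10 dendritic cell markers summed to 2.62 to 4.48 and 1.91 to 4.21 CPM, with overlap, and Xcr1, Clec9a and Cd209a were at 0 in all libraries. The 11 macrophage and monocyte markers summed to 30.4 to 33.0 and 30.5 to 51.7 CPM, mostly from Cd68 and Cd14, while Adgre1, Cx3cr1, C1qb, C1qc, Fcgr1 and Ly6c2 had at most 3 counts in each library.

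The 11 general leukocyte markers summed to 38.4 to 57.0 and 47.4 to 67.1 CPM. Of the tested genes of these 4 lists, which were 3, 2, 4 and 7 in number, 0 were called by edgeR, DESeq2 or limma-voom. At an unadjusted p below 0.05 in edgeR stood 1 of them, the macrophage marker Cd14. Over all tested genes edgeR called 1.41%, and 9.23% had an unadjusted p below 0.05. With so few genes, 0 calls is near that share and does not show that these markers were unchanged. Markers of T cells, NK cells and group 3 innate lymphoid cells are not reported here. Among the aged libraries the B cell and macrophage sums had the order of the class II genes, highest in replicate 2 and lowest in replicate 3. Cd68 and Cd14 each had that order among the aged libraries. The macrophage sum had the class II order among the young libraries too, but neither Cd68 nor Cd14 did. In young replicates 1, 2 and 3 Cd68 stood at 9.53, 17.2 and 9.39 CPM and Cd14 at 19.8, 15.0 and 21.0 CPM. The dendritic cell and general leukocyte sums were highest in aged replicate 3 and lowest in aged replicate 2. The dendritic cell sums came mostly from Sirpa and Zbtb46, and the general leukocyte sums mostly from Lcp1. Sirpa stood at 1.67, 0.768 and 3.21 CPM and Lcp1 at 42.0, 36.1 and 54.8 CPM in aged replicates 1, 2 and 3. The order of these sums among the aged libraries was thus that of Sirpa and of Lcp1. Cd79a, a part of the B cell receptor, stood at 0.409, 0.710 and 0.360 CPM in young and 0.803, 1.34 and 0.517 CPM in aged replicates 1, 2 and 3 (log2 fold change 0.80 ± 0.42, SE, adjusted p = 0.656 in edgeR's test). In the same list Mzb1 had 1, 8 and 3 counts in young and 2, 0 and 1 in aged replicates 1, 2 and 3, and Jchain had 4, 3 and 1 against 2, 0 and 0, both too low to test. The part of these cells in the class II difference was not tested. The 7 members summed to 62.4 to 170.3 CPM in young and 1051 to 4318 CPM in aged libraries.

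**Figure D3:**
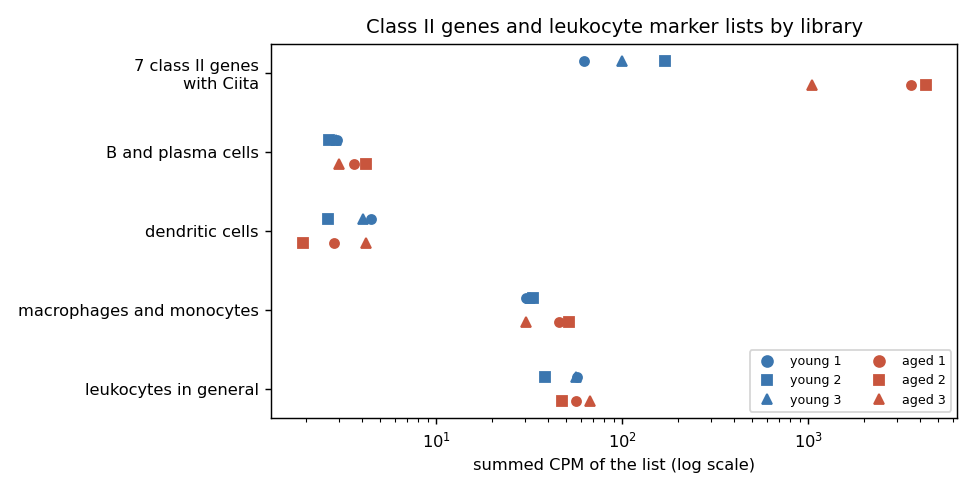
Summed CPM on a log scale of the 7 class II genes with Ciita and of 4 lists of leukocyte markers, 1 marker per library (young in blue, aged in red). The class II sum separates the ages, at 62.4 to 170.3 against 1051 to 4318 CPM, the dendritic cell, macrophage and general leukocyte sums overlap, and the B cell sums do not, at 2.65 to 2.91 against 2.99 to 4.19 CPM.

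The remaining genes of the class II route were tested in the same fit, with p-values adjusted over all 14923 genes. They were grouped in 7 lists with 56 genes in the table, of which 44 passed the filter. Of these 44, 1 rose, 0 fell and 10 had an unadjusted p below 0.05 (edgeR quasi-likelihood test), where 1.41% of all tested genes were called and 9.23% had an unadjusted p below 0.05. Their median log2 fold change was 0.06. The gene that rose was Irf1, a transcription factor that acts on the interferon-responsive promoter of Ciita.

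Factors that act on the promoters of class II genes or of Ciita differed little. Of 12, all tested, 0 were called by edgeR, by DESeq2 or by limma-voom, and 0 had an unadjusted p below 0.05 in edgeR. The list's log2 fold changes lay between -0.14 and 0.14. The RFX subunit gene Rfx5 stood at 26.2, 27.5 and 26.3 CPM in young and 27.8, 28.8 and 27.9 CPM in aged replicates 1, 2 and 3 (log2 fold change 0.08 ± 0.08, SE, adjusted p = 0.873 by edgeR). Rfxank had 0.14 ± 0.11 and Rfxap -0.14 ± 0.12 on the same scale. The most abundant factors of the list were Smarca4, a chromatin remodeller, with 0.11 ± 0.07, and Ep300, a histone acetyltransferase, with 0.10 ± 0.08.

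Along the interferon-gamma route to Ciita, 1 of 10 tested genes rose and 0 fell, and 4 had an unadjusted p below 0.05. Irf1 stood at 191, 242 and 207 CPM in young and 339, 348 and 315 CPM in aged replicates 1, 2 and 3, without overlap (log2 fold change 0.65 ± 0.10, SE, adjusted p = 0.0130 by edgeR). The call was lost without young replicate 1, young replicate 3, aged replicate 1 or aged replicate 2, with adjusted p up to 0.0766, while the log2 fold change in those 4 fits lay between 0.57 and 0.64.

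The receptor genes did not pass. Ifngr1 had a log2 fold change of 0.01 ± 0.07 and Ifngr2 of -0.24 ± 0.13 (adjusted p = 0.982 and 0.671 by edgeR). Transcripts of Ifng itself, the product of T and NK cells, came to 1 count in all, in aged replicate 3. Leukocytes were sorted out by CD45, so this count does not show how much Ifng the tissue held.

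**Figure D4:**
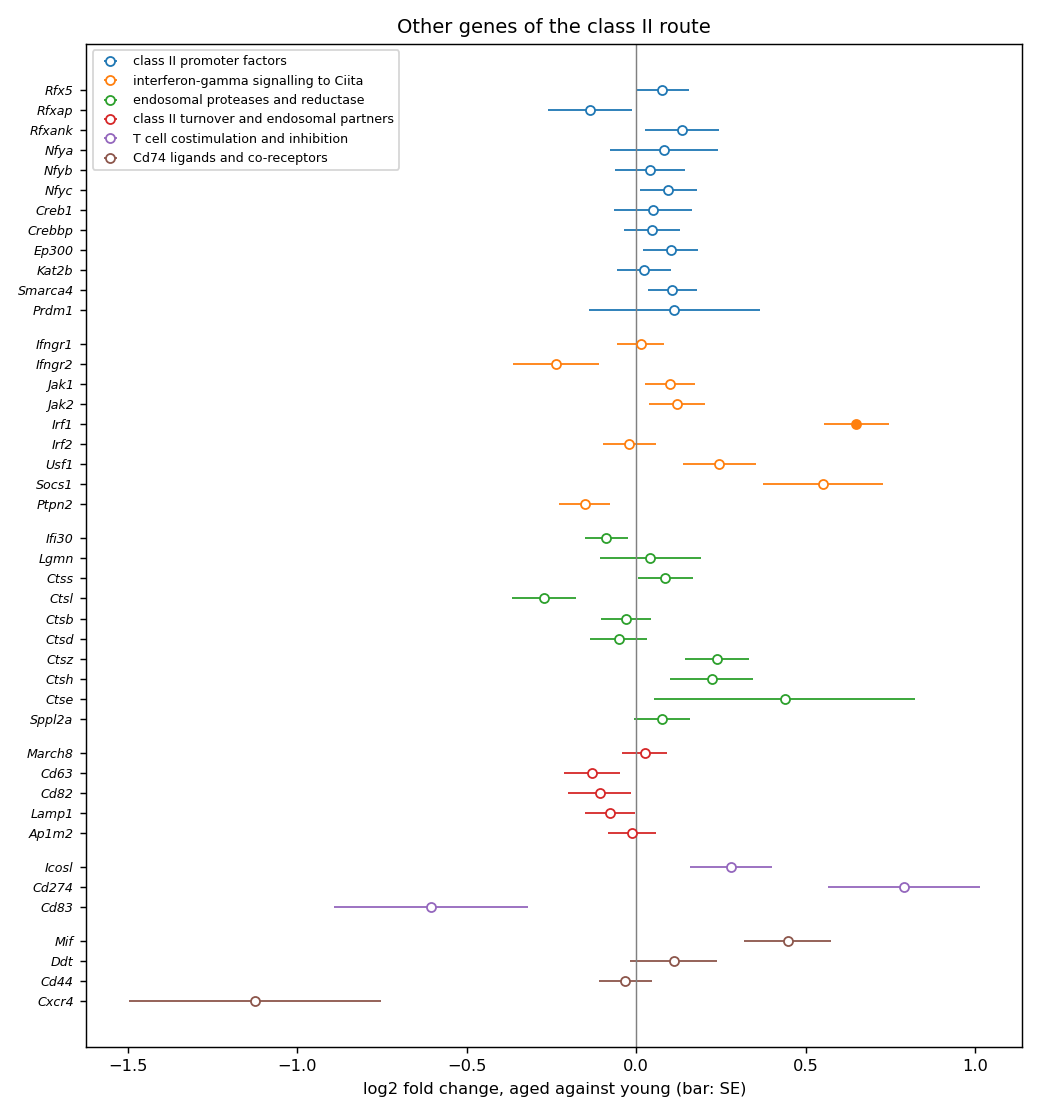
Fitted log2 fold change, aged against young, with its standard error, of tested genes in 6 lists of the class II route; the filled point, Irf1, passed the test and open points did not. All genes listed as class II promoter factors lie between -0.14 and 0.14, and the genes plotted lie between -1.13 and 0.79, where the 7 members lie between 2.96 and 6.69.

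Among the enzymes that make peptides for class II and trim Cd74, 0 of 10 were called by edgeR, DESeq2 or limma-voom, and 2 had an unadjusted p below 0.05 in edgeR. The thiol reductase gene Ifi30 stood at 273, 287 and 269 CPM in young and 260, 257 and 263 CPM in aged libraries. Ctss, the protease that completes Cd74 removal in many class II cells, stood at 50.5, 43.5 and 49.6 and at 49.5, 50.6 and 52.3 CPM. Their log2 fold changes were -0.09 ± 0.06 and 0.09 ± 0.08 (adjusted p = 0.811 and 0.857 by edgeR). The most abundant of the list were the protease gene Ctsb, with -0.03 ± 0.07, and Ifi30.

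Genes of class II turnover and endosomal proteins had 5 of 6 members tested, with 0 calls by all 3 tools and 0 at an unadjusted p below 0.05. March8, a ubiquitin ligase that removes class II from the surface, had a log2 fold change of 0.03 ± 0.07, and its relative March1 had 0 counts in all libraries. The most abundant of the list were Lamp1, with -0.08 ± 0.07, and Ap1m2, with -0.01 ± 0.07.

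The classical costimulatory ligands Cd80 and Cd86 were at or near 0 counts. Cd86 had 0 counts in all 6 libraries, and Cd80 had 2 counts in young replicate 2 and 3 in aged replicate 2. Of the 7 genes for T cell costimulation and inhibition 3 were tested and 0 were called by the 3 tools, and 2 had an unadjusted p below 0.05 in edgeR. Cd274, which encodes the inhibitory ligand PD-L1, stood at 1.21, 1.07 and 1.01 CPM in young and 2.03, 2.08 and 1.57 CPM in aged replicates 1, 2 and 3 (0.79 ± 0.22, adjusted p = 0.184 by edgeR). The most abundant of the list were Icosl, a costimulatory ligand, with 0.28 ± 0.12 (adjusted p = 0.529 by edgeR), and Cd83, a surface protein that stabilises class II, with -0.61 ± 0.29 (adjusted p = 0.607 by edgeR). Cd40 had 3 to 14 counts per library and did not pass the filter. Of 4 tested genes for Cd74 ligands and co-receptors 0 were called by the 3 tools, and 2 had an unadjusted p below 0.05. Its most abundant members were Cd44, with -0.03 ± 0.08, and Mif, which encodes a cytokine that binds Cd74, with 0.45 ± 0.13 (adjusted p = 0.196 by edgeR).

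The genes whose profile over the 6 libraries lay nearest to that of the class II group were found among the 12327 other tested genes that averaged 1 CPM or more. Likeness was the root-mean-square difference in log2 CPM, each gene centred on its own mean, from the mean profile of the 7 members. Since the profile holds the age difference, the list is a description. Nlrc5, the transactivator of MHC class I genes and a relative of Ciita, was nearest at 0.32, nearer than Ciita itself (0.49), H2-DMa (0.83) and H2-Aa (1.03). It stood at 1.11, 3.36 and 1.61 CPM in young and 35.4, 45.0 and 13.9 CPM in aged replicates 1, 2 and 3, in the order of libraries of the class II genes.

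Next came Strc (0.62), the interferon-induced GTPase genes Tgtp2 (0.64) and Iigp1 (0.72), Gm12185 (0.78), the collagen receptor gene Ddr2 (0.81), BC064078 (0.95), the purine receptor gene P2rx7 (0.95), the class I gene H2-Q7 (0.95) and Foxd2os (1.11). Strc, Tgtp2, Iigp1, Gm12185 and Ddr2 were at most 0.338 CPM in every young library, so their profiles rest on few counts there. Ddr2 and P2rx7 had the age step but little spread among the aged, at 8.33 to 10.4 and 9.26 to 10.5 CPM. H2-Q7 had the spread, at 25.7, 33.8 and 3.85 CPM in aged replicates 1, 2 and 3. H2-Q7 has close class I paralogues, so its count is uncertain. With each age group centred on its own mean, which takes the age difference out, Nlrc5 was the second nearest of the 12327 genes (0.133), and it was the only one of the 10 that was also among the 10 nearest on that measure. Nearest on that measure was Scd2 (0.128), whose age difference was not called (log2 fold change 0.82, adjusted p = 0.797 by edgeR).

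**Figure D5:**
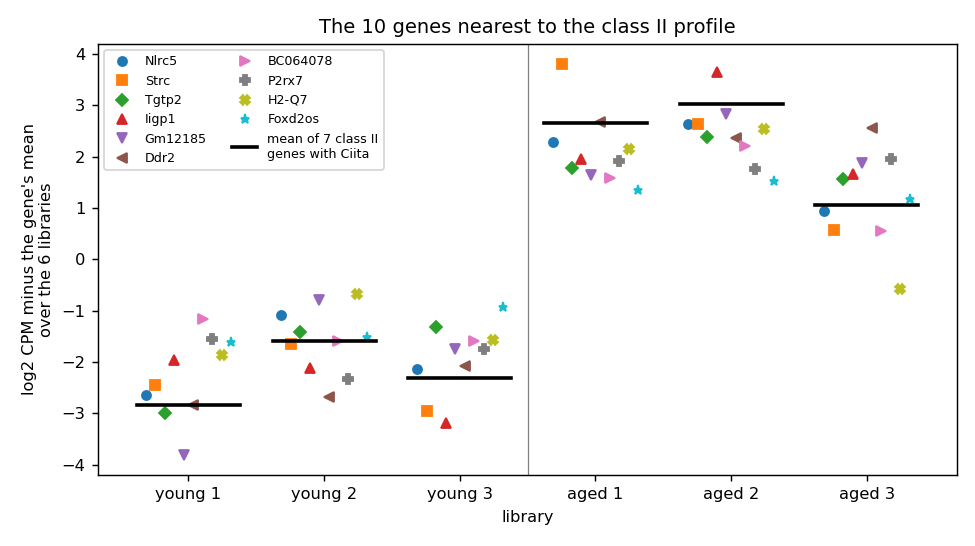
Log2 CPM of the 10 nearest genes in each library, each gene centred on its mean over the 6 libraries, with black bars for the mean of the 7 class II genes with Ciita. The black bars run from -2.84 to -1.58 in young and from 1.06 to 3.02 in aged libraries, and Nlrc5 (blue circles) lies nearest to them.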

How the data were processed

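The members and gene lists were chosen with earlier results of these data known. The authors deposited whole-number counts for each gene, not normalized, whose totals differ between libraries. According to the submitters' processing notes the build was GRCm38 and the tools included STAR, HISAT2 2.1.0 and featureCounts 1.6.4, listed without role or order. Not given in the sources used here are the annotation release and whether counting used strand. Per the labels' protocols, poly(A) RNA was used and the kit keeps strand. Libraries of the same age differed by a chi-square of 27.0 or more per gene, so none was counted as a duplicate. Each library was taken as 1 mouse from the series design, and nothing in the labels says more. Genes were kept by filterByExpr (minimum count 10), scaled by TMM and tested with edgeR 4.0.16 (quasi-likelihood, robust, R 4.3.3). P-values were Benjamini-Hochberg adjusted over all 14923 genes, with a threshold of 0.05. The standard error is the log2 fold change over the root of F. CPM per kb used the union of GENCODE M21 exons, which held 45143 of the gene IDs. Named genes were the 7 members, per list the called genes or the 2 most abundant, a fixed set of regulators and class II genes, and the 10 nearest by profile. Cd79a, Cd79b, Mzb1, Jchain, Sirpa, Zbtb46, Itgax, Lcp1, Cd40, Cd14, Cd68, Scd2, March1, March8, Dexi, Brd2 and Mir5107 were named after their values were seen. Values of some listed genes and of 1 marker list are not reported here. The X and Y letters were set after the promoter windows had been read. The fit was tested on simulated data. Alternatives were DESeq2 1.42.0, limma-voom (limma 3.58.1), other scalings and filters, non-robust estimation and leaving out each library.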

Additional observations from a re-analysis of the deposited data

How the results depend on the processing

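All 7 members stayed higher in aged libraries under the 13 alternatives run, with log2 fold changes from 2.62 to 7.36, and their median lay between 4.05 and 4.87 when 1 library was left out. The members were chosen for this direction and their groups did not overlap. Leaving out 1 library could therefore not reverse it, so only the size of the folds is read here. Of all genes, 93 were called higher and 117 lower. DESeq2 called 206 and 276, no filter gave 168 and 245, and at least 1 CPM in 3 libraries gave 67 lower. Leaving out 1 library gave 35 to 135 higher and 30 to 135 lower, the fewest without aged replicate 2 and aged replicate 1. For pathway genes called higher (1, Irf1), the count was 3 with no filter (Irf1 and Mif among them), 2 with DESeq2 (Irf1 among them) and 0 to 2 with 1 library left out. Ifngr1, near 0, ran from -0.024 to 0.057 without 1 library (log2), and below 0 in 3 of those fits. With the longest transcript as length, the mean aged ratios of H2-Ab1 to H2-Aa, H2-DMa to H2-DMb1 and Cd74 to H2-Ab1 were 5.94, 1.21 and 3.64, against 3.31, 0.844 and 6.48 with the union of exons. With a prior count of 0.5, 8 of the 10 nearest genes were the same. No paired analysis was possible because the labels give no replicate numbers. With 3 libraries per age the spread of single genes limits the tests, and genes at 0 allow up to 3 counts per library.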
